A study of Homo sapiens with 9 samples.

Results

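The BCL2 family of apoptosis regulators was followed through 10 of its genes, BCL2, BCL2L1, BCL2L2, MCL1, BAX, BAK1, BCL2L11, BID, BBC3 and PMAIP1, which were picked by gene symbol from the 58299 genes of an RNA-seq count table. All 10 were found, and all 10 passed the filter on low counts that left 14965 genes for testing. The cells were AC16, an established human line obtained by fusing heart ventricle cells with a fibroblast line that had been transformed with SV40. There were 3 groups of 3 libraries. The first group had CDDO-Me (bardoxolone methyl, a triterpenoid that activates the transcription factor NRF2) at 100 nM over 72 h, the second had the same dose over 24 h, and the controls had the solvent DMSO at 0.1% over 72 h. By its title the study concerns protection from doxorubicin, and no library received doxorubicin. A vehicle group of 24 h was not analysed here, so treatment and time in culture cannot be told apart in the comparison of 24 h with DMSO. In the comparison of 72 h with 24 h, length of exposure and time in culture likewise cannot be told apart. All 3 groups are 1 cell line. The labels leave unsaid how replicates were grown, and a p-value here then covers only the variation among these libraries, which may be technical.

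Proteins of the BCL2 family meet at the mitochondrial outer membrane and decide whether it becomes permeable, which releases cytochrome c and starts the caspase cascade. Guardians (BCL2, BCL-XL from BCL2L1, BCL-w from BCL2L2, and MCL1) hold the membrane intact, and the effectors BAX and BAK1 form the pores that open it. BH3-only proteins (BIM from BCL2L11, BID, PUMA from BBC3, NOXA from PMAIP1) sense stress and either occupy the guardians or activate the effectors. In heart muscle, loss of cells through this pathway is part of the injury that anthracyclines cause.

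Differences between groups were small in all members, with log2 fold changes between −0.35 and 0.63. After 72 h of CDDO-Me, BAX was the only member called, which means an adjusted p under 0.05, and it was 1.23-fold higher than in DMSO (edgeR quasi-likelihood test with Benjamini-Hochberg adjustment, adjusted p = 0.0245). No member was called at 24 h against DMSO or at 72 h against 24 h. BAX is shown here with the other effector, BAK1, through the stretch of 250 bases before the annotated start of each gene (RefSeq, GRCh38.p14, printed 5′ to 3′ on the strand of the gene), because BAX carries the single call among the members. In BAX (chr19:48954625-48954874, plus strand) capitals mark E-boxes and the core of an antioxidant response element. In BAK1 (chr6:33580277-33580526, minus strand) capitals mark a p53 decamer. In the coordinates of the count table BAX starts at 48954815 and BAK1, on the minus strand, at 33580293. The last printed bases of each stretch thus lie inside the gene as counted.
BAX: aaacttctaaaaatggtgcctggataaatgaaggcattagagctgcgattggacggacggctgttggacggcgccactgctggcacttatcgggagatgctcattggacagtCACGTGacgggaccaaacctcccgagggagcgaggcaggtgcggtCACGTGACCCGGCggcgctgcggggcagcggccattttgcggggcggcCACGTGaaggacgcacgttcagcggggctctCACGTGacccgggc
BAK1: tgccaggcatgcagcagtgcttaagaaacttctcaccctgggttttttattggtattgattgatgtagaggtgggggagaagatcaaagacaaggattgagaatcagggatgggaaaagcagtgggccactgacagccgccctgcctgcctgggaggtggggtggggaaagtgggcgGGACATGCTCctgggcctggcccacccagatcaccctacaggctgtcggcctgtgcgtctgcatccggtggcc
The E-box, CACGTG, is bound by factors of the MYC and MITF families and reads the same on both strands. It occurred 4 times in the BAX window of 300 bases, starting at −138, −93, −45 and −14 relative to the RefSeq start. Those at −45 and −14 lie inside BAX as counted. At least 1 E-box was present in 7.26% of the 35116 human promoter windows of this length in the table, and at least 4 in 0.0142%, which is 5 windows. The response element core TGACNNNGC, searched on both strands as the letters common to sites of NRF2, matched once in BAX, at −89, shared 2 bases with an E-box, and had at least 1 match in 13.3% of windows. The p53 decamer, searched on both strands, matched once in BAK1 and in no other member window, and had at least 1 match in 6.63% of windows. Of the 10 members, 8 were matched to a window, 13 windows in all, and MCL1 and BCL2L2 were not. Among the others, 1 of 2 windows of BCL2L1 held a response element core, 2 of 5 windows of BID held 1 E-box each, the BBC3 window held 1 E-box, and BCL2, BCL2L11 and PMAIP1 held none of these letters. These matches describe letters and say nothing about which factors were bound.

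Total counts ran from 16898977 to 27910031 per library. Beyond counting error, pairs of CDDO-Me 72 h libraries varied by 2.7 to 3.3% (biological coefficient of variation). Replicate 3 of CDDO-Me 24 h varied by 20.9% and 19.8% from replicates 1 and 2, which varied by 6.4% from each other. Replicate 1 of DMSO varied by 12.1% and 13.8% from replicates 2 and 3, which varied by 7.8% from each other. A list of 10 genes labelled nuclear-retained RNA held the noncoding MALAT1, NEAT1, MEG3 and KCNQ1OT1. It also held CCNL1, CLK1, CLK4, OGT, SRSF5 and LUC7L3, which are coding genes, so the label covers it only in part. Relative to the DMSO mean, its median log2 level was −0.24 to −0.27 in the 72 h libraries. It was 0.28, 0.46 and −0.29 in the 24 h libraries and 0.39, −0.18 and −0.12 in the DMSO libraries, in replicate order. Of 14 heart muscle markers only GATA4 was tested, at 21.3 ± 0.754, 21.3 ± 3.16 and 25.3 ± 0.471 CPM in the 72 h, 24 h and DMSO groups, while MYH6, MYH7, MYL2, NKX2-5, RYR2 and PLN had 0 counts in all 9 libraries. All 10 fibroblast markers were tested, with a summed level of 17270 to 17777 CPM at 72 h, 12614 to 19063 at 24 h and 15164 to 16492 in DMSO. Of these 10, 3 fell at 72 h against DMSO, POSTN, PDGFRA and FAP, beside 3.13% of tested genes called lower. PDGFRA and FAP lost their calls without any 1 library of the 72 h or DMSO groups, leaving 1. Endothelial markers summed to 7.75 to 8.28 CPM at 72 h, 10.9 to 12.3 at 24 h and 13.3 to 15.6 in DMSO, and leukocyte markers to 0.921 to 1.01, 0.757 to 1.98 and 1.16 to 2.08 CPM in these groups. Of 4 endothelial markers tested 1, TEK, was called lower at 72 h against DMSO (adjusted p = 0.00267, edgeR). It kept its call in 9 of 9 fits with 1 library left out. In RNA from whole cultures, fewer cells of a kind and less RNA per cell cannot be told apart. What part these markers or the nuclear-retained RNAs have in the values of the members was not tested.

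**Figure D1:**
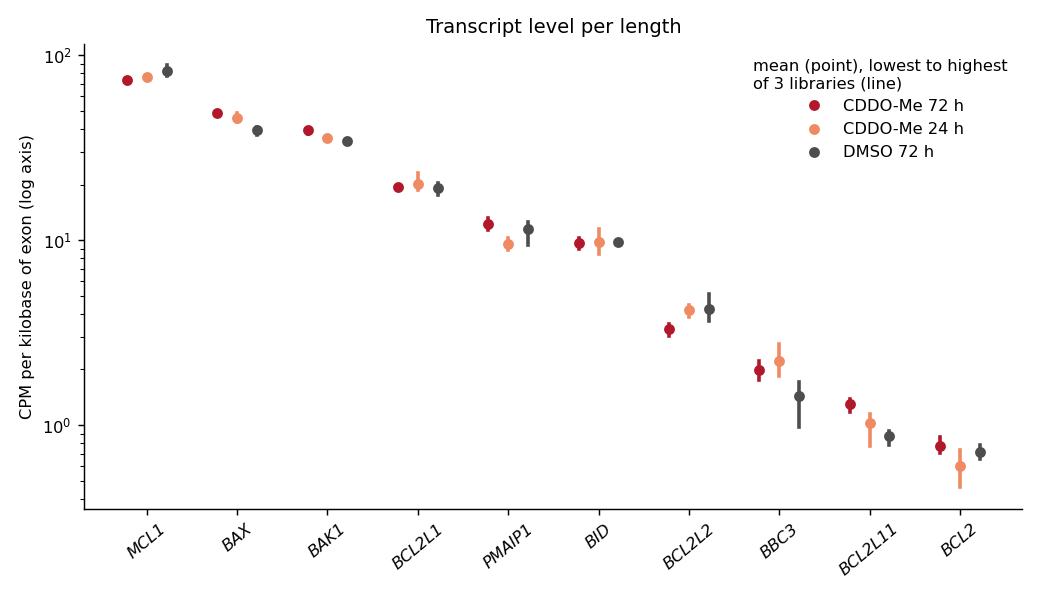
Transcript level of each member per length, as CPM per kilobase of exon on a log axis, in the CDDO-Me 72 h, CDDO-Me 24 h and DMSO 72 h groups. Points are means of 3 libraries and lines run from the lowest to the highest library. MCL1 stood highest and BCL2 lowest in all 3 groups.

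Levels of different genes were compared per length, as CPM (counts set relative to a common library total, with library sizes scaled by the trimmed mean of M values) divided by the kilobases of exon in the table. MCL1, a guardian whose protein turns over within a short time, stood highest, at 73.6 ± 1.80, 76.1 ± 1.94 and 82.5 ± 5.49 CPM per kilobase in the 72 h, 24 h and DMSO groups (mean ± SD, n = 3 each, as for all means below). In DMSO this level was above 97.1% of tested genes. The effectors came next, BAX at 48.8, 46.0 and 39.6 and BAK1 at 39.4, 35.7 and 34.3 CPM per kilobase in the same groups. BCL2L1 followed at 19.5, 20.2 and 19.2 CPM per kilobase. PMAIP1 was at 12.3, 9.49 and 11.5 and BID at 9.62, 9.79 and 9.83 CPM per kilobase, and libraries of this pair overlapped at 24 h and in DMSO. BCL2L2 was at 3.33, 4.21 and 4.26 CPM per kilobase. BBC3 was at 1.98, 2.24 and 1.44 CPM per kilobase. BCL2L11 was at 1.30, 1.02 and 0.879 and BCL2 at 0.772, 0.604 and 0.719 CPM per kilobase, with overlap in DMSO only. BCL2, the founding member of the family, was above 20.1% of tested genes in DMSO. The order was the same at 72 h and in DMSO, and at 24 h BID and PMAIP1 changed places within their overlap. Every other pair of neighbours in the order was fully apart in each group. The order divides by all exon bases, also those shared with other genes. These were 43.0% in BCL2L1, with ABALON, and 19.4% in BCL2L2, with BCL2L2-PABPN1. In BCL2L11 they were 10.9%, with MIR4435-2HG, which had more counts than BCL2L11 itself. How reads on shared bases were counted was not examined, so the levels and ranks of BCL2L1, BCL2L2 and BCL2L11 are less certain.

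**Figure D2:**
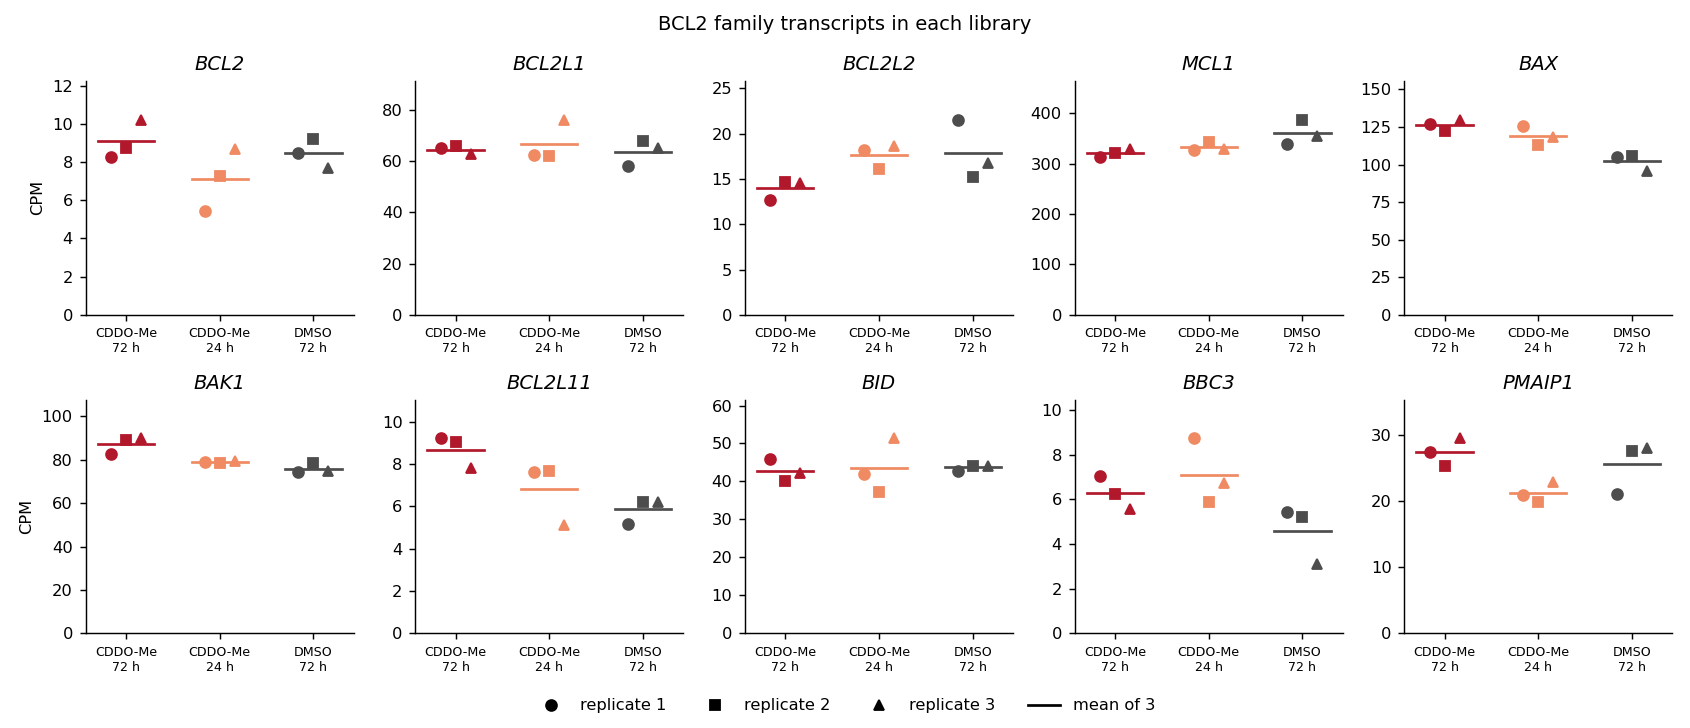
CPM of each member in each of the 9 libraries (y axis, from 0), with CDDO-Me 72 h, CDDO-Me 24 h and DMSO 72 h along the x axis. Marker shapes give the replicate number and bars the mean of 3. BAX is the member called at 72 h: its libraries lie between 122.0 and 129.6 CPM at 72 h, 113.2 and 125.6 at 24 h, and 96.0 and 105.7 in DMSO.

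Among the effectors, BAX, which moves from the cytosol into the outer membrane when activated (ENSG00000087088, chromosome 19, 48954815 to 48961798, plus strand), had 127.0, 122.0 and 129.6 CPM at 72 h, 125.6, 113.2 and 118.4 CPM at 24 h and 105.3, 105.7 and 96.0 CPM in DMSO. Every treated library, at either time, was above every DMSO library, and the 72 h and 24 h libraries overlapped. Group means were 126.2 ± 3.86, 119.1 ± 6.21 and 102.3 ± 5.48 CPM. At 72 h BAX rose by 0.30 ± 0.07 against DMSO (log2 fold change ± SE, 95% interval 0.15 to 0.46). At 24 h its log2 fold change was 0.22 ± 0.07 and did not pass (adjusted p = 0.181, unadjusted 0.00994, edgeR). Between 72 h and 24 h it was 0.08 ± 0.07 (adjusted p = 0.674).

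The call of BAX at 72 h rested on the full set of libraries. It was lost when CDDO-Me 72 h replicates 1, 2 or 3 (adjusted p = 0.121, 0.0762 and 0.140, in that order) or DMSO replicates 2 or 3 (0.0582 and 0.0793) were left out of the edgeR fit. It was kept without any 1 of the other 4 libraries and under 8 of 8 other alternatives (adjusted p from 0.000581 to 0.0300). The log2 fold change stayed between 0.26 and 0.33 as each library was left out in turn. Without DMSO replicate 1 BAX was at 0.32 (adjusted p = 0.0361). The median of the nuclear-retained list at 72 h lay below each DMSO library, and furthest below DMSO replicate 1. What part these RNAs have in the values of BAX was not tested.

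**Figure D3:**
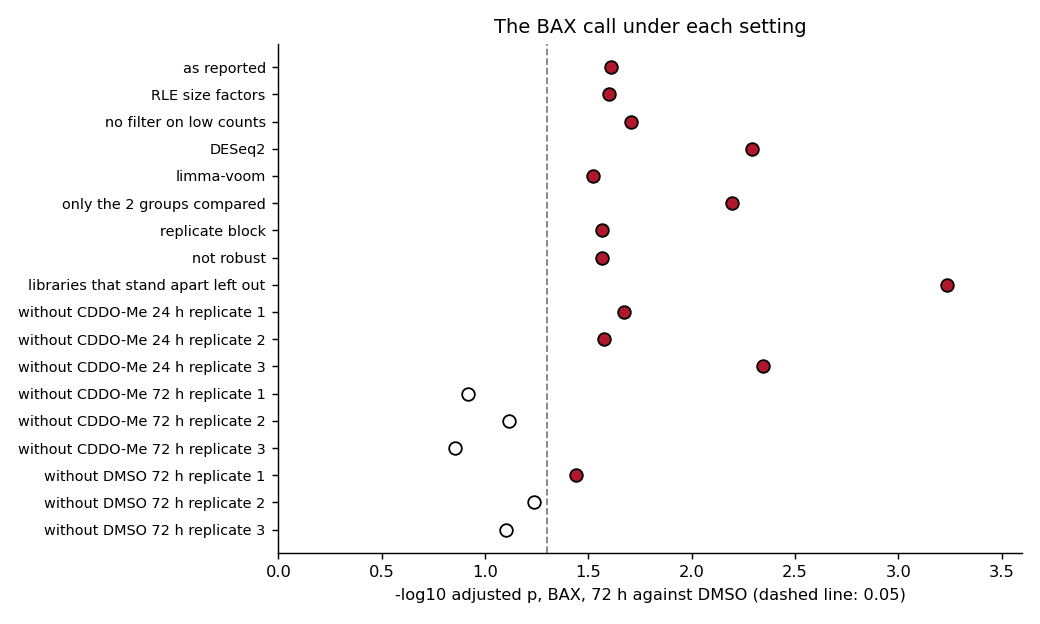
Adjusted p of BAX at 72 h against DMSO, as −log10 (x axis), under each setting of the analysis (y axis), with a dashed line at 0.05. Filled points pass and open points do not. The 5 open points are the fits without CDDO-Me 72 h replicates 1, 2 or 3 or without DMSO replicates 2 or 3.

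BAK1, the effector that resides in the outer membrane (ENSG00000030110, chromosome 6, 33572547 to 33580293, minus strand), had 82.6, 89.2 and 89.8 CPM at 72 h, 78.8, 78.7 and 79.4 CPM at 24 h and 74.3, 78.4 and 74.6 CPM in DMSO. The 3 groups did not overlap, and the lowest 24 h library was only just above the highest DMSO library. The log2 fold change was 0.20 ± 0.07 at 72 h (95% interval 0.05 to 0.36, adjusted p = 0.128, edgeR) and 0.06 ± 0.07 at 24 h (adjusted p = 0.802). Between 72 h and 24 h it was 0.14 ± 0.07 (adjusted p = 0.413). BAK1 did pass at 72 h without CDDO-Me 24 h replicate 3 (adjusted p = 0.0495), a library outside that comparison which enters its estimate of spread. BAK1 has processed copies in the genome, of which BAK1P1 had 1 to 7 counts per library and BAK1P2 had 0. GGNBP1, on the other strand, shares 91 bases (4.11%) with exons of BAK1 and had 0 to 3 counts.

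Among the guardians, MCL1 (ENSG00000143384, chromosome 1, 150574551 to 150579738, minus strand) had 313.8, 322.2 and 329.6 CPM at 72 h, 326.8, 342.4 and 328.8 CPM at 24 h and 340.0, 387.1 and 355.4 CPM in DMSO. The 72 h libraries were all below the DMSO libraries, and the 24 h libraries overlapped both. Its log2 fold change at 72 h was −0.16 ± 0.07 (95% interval −0.32 to −0.01) and did not pass (adjusted p = 0.228, edgeR). At 24 h it was −0.12 ± 0.07 (adjusted p = 0.550).

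BCL2L2, the gene of BCL-w (chromosome 14, 23298790 to 23311759, plus strand), had 12.6, 14.7 and 14.5 CPM at 72 h, 18.2, 16.1 and 18.7 CPM at 24 h and 21.5, 15.3 and 16.7 CPM in DMSO. The 72 h libraries lay below all others, and the highest library was DMSO replicate 1. Its log2 fold change was −0.35 ± 0.14 at 72 h against DMSO (95% interval −0.65 to −0.06, adjusted p = 0.167, edgeR). It was −0.34 ± 0.14 at 72 h against 24 h (adjusted p = 0.307) and −0.01 ± 0.14 at 24 h against DMSO (adjusted p = 0.983). Without DMSO replicate 1 it was −0.20 at 72 h against DMSO. Exons of BCL2L2 share 813 bases, or 19.4% of their length, with BCL2L2-PABPN1, a readthrough gene on the same strand with 14 to 34 counts per library, and 206 bases (4.92%) with PPP1R3E on the other strand, which had 59 to 114 counts.

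BCL2L1, the gene of BCL-XL (chromosome 20, 31664452 to 31723989, minus strand), had 65.1, 65.8 and 62.6 CPM at 72 h, 62.6, 62.0 and 76.1 CPM at 24 h and 57.9, 67.9 and 65.0 CPM in DMSO. The groups overlapped, and CDDO-Me 24 h replicate 3 was the highest library. Its log2 fold changes against DMSO were 0.02 ± 0.09 at 72 h (95% interval −0.18 to 0.22) and 0.07 ± 0.09 at 24 h (−0.13 to 0.28), neither of which passed. The antisense gene ABALON covers 1424 bases, or 43.0% of the exons of BCL2L1, and had 5 to 33 counts per library. The kit does not mark strand, so reads of such a pair cannot be told apart.

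BCL2 itself (ENSG00000171791, chromosome 18, 63123346 to 63320128, minus strand) had 8.28, 8.76 and 10.2 CPM at 72 h, 5.41, 7.24 and 8.66 CPM at 24 h and 8.48, 9.22 and 7.69 CPM in DMSO. The lowest library was CDDO-Me 24 h replicate 1 and the groups overlapped. Its log2 fold change was 0.10 ± 0.18 at 72 h and −0.24 ± 0.18 at 24 h against DMSO (adjusted p = 0.821 and 0.643, edgeR). At 72 h against 24 h it was 0.34 ± 0.18 (95% interval −0.04 to 0.72, adjusted p = 0.426).

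Among the BH3-only genes, BCL2L11 encodes BIM, an activator of BAX and BAK1 that also binds every guardian (chromosome 2, 111119378 to 111168447, plus strand). It had 9.21, 9.02 and 7.80 CPM at 72 h, 7.63, 7.65 and 5.12 CPM at 24 h and 5.17, 6.20 and 6.19 CPM in DMSO. The 72 h libraries were above all others, by a narrow margin over 24 h, and CDDO-Me 24 h replicate 3 was the lowest of the 9. At 72 h its log2 fold change was 0.57 ± 0.18 (1.48-fold, 95% interval 0.18 to 0.96), which did not pass (adjusted p = 0.0868, edgeR). It passed when only the 6 libraries of the DMSO and 72 h groups were fitted (adjusted p = 0.0206) and without CDDO-Me 24 h replicate 3 (0.0120). At 24 h it was 0.21 ± 0.18 (adjusted p = 0.712), and at 72 h against 24 h 0.36 ± 0.18 (adjusted p = 0.410). The opposite-strand gene MIR4435-2HG, with 704 to 1538 counts per library, shares 727 bases with BCL2L11. These are 10.9% of the exons of BCL2L11, which itself had 100 to 190 counts. The kit does not mark strand, so reads on these bases cannot be told apart, which limits the values of BCL2L11.

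BBC3, the gene of PUMA, a target of p53 (chromosome 19, 47220822 to 47232766, minus strand), had 7.07, 6.26 and 5.55 CPM at 72 h, 8.73, 5.88 and 6.72 CPM at 24 h and 5.43, 5.21 and 3.10 CPM in DMSO. Treated libraries were all above DMSO libraries, the gap between CDDO-Me 72 h replicate 3 and DMSO replicate 1 being the smallest. Its log2 fold change was 0.46 ± 0.23 at 72 h (95% interval −0.02 to 0.95, adjusted p = 0.290) and 0.63 ± 0.22 at 24 h (1.55-fold, 95% interval 0.15 to 1.11, adjusted p = 0.209, edgeR). Between 72 h and 24 h it was −0.17 ± 0.22 (adjusted p = 0.798). Without DMSO replicate 3, the lowest library, it was 0.25 at 72 h and 0.41 at 24 h against DMSO.

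PMAIP1, the gene of NOXA, which binds MCL1 (chromosome 18, 59899948 to 59904306, plus strand), had 27.5, 25.3 and 29.5 CPM at 72 h, 20.9, 19.9 and 22.9 CPM at 24 h and 21.1, 27.6 and 28.2 CPM in DMSO. The 24 h libraries were below the 72 h libraries and overlapped DMSO through DMSO replicate 1. Its log2 fold change was 0.37 ± 0.12 at 72 h against 24 h (95% interval 0.11 to 0.63, adjusted p = 0.197, edgeR), and it passed without CDDO-Me 24 h replicate 3 (adjusted p = 0.0307). Against DMSO it was 0.10 ± 0.12 at 72 h and −0.27 ± 0.12 at 24 h (adjusted p = 0.735 and 0.363).

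BID, which is activated by caspase 8 and links death receptors to mitochondria (chromosome 22, 17734138 to 17774770, minus strand), had 46.0, 40.1 and 42.2 CPM at 72 h, 42.0, 37.3 and 51.3 CPM at 24 h and 42.8, 44.1 and 44.2 CPM in DMSO. Both the highest and the lowest library were of the 24 h group. Its log2 fold change was −0.03 ± 0.11 at 72 h (95% interval −0.26 to 0.20) and −0.00 ± 0.11 at 24 h (−0.24 to 0.23), and neither passed.

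**Figure D4:**
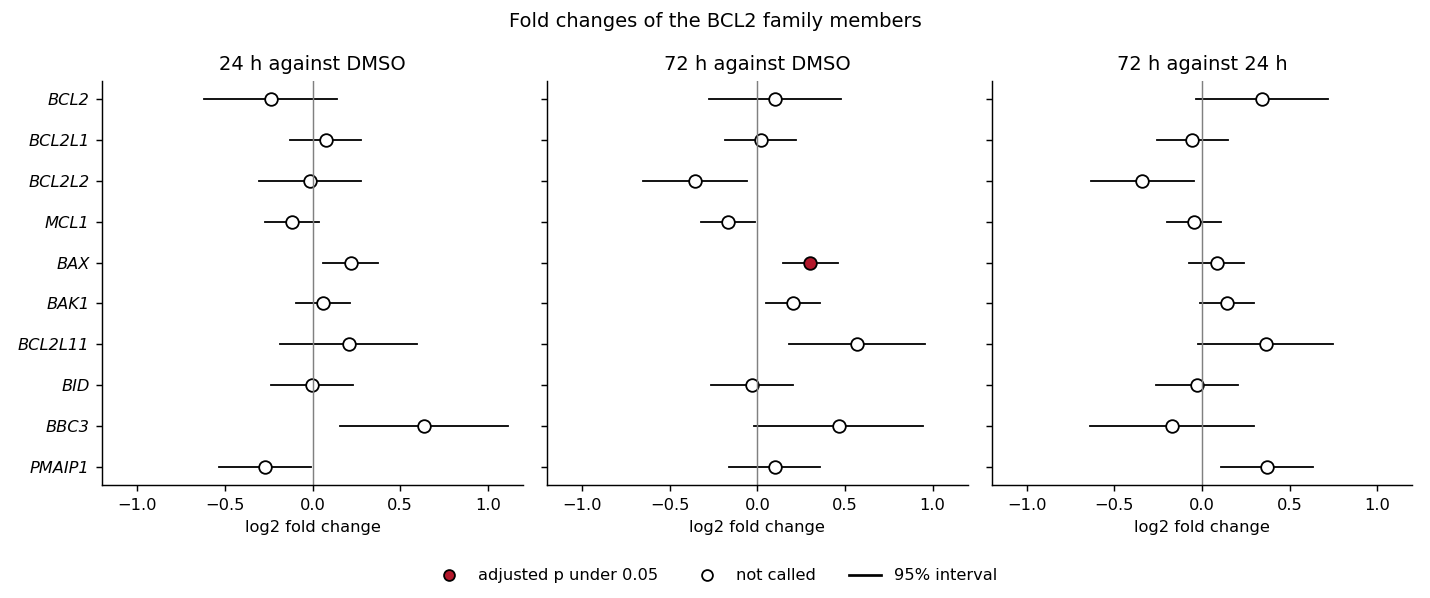
Log2 fold change of each member (x axis) in 24 h against DMSO, 72 h against DMSO and 72 h against 24 h, with 95% intervals as lines. The filled point, BAX at 72 h against DMSO, has an adjusted p under 0.05, and open points do not.

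Over the family, 1 of 10 members was called at 72 h against DMSO, and it was higher, beside 6.02% of tested genes called in either direction, 2.89% called higher and 3.13% called lower. At 24 h against DMSO 0 of 10 were called, beside 2.15% of tested genes (0.969% higher, 1.18% lower), and at 72 h against 24 h 0 of 10, beside 1.02% (0.448% higher, 0.568% lower). The counts of called members were the same by DESeq2 and limma-voom. At an unadjusted p under 0.05 by edgeR there were 5 of 10 members at 72 h, beside 18.6% of tested genes, 3 at 24 h, beside 12.8%, and 2 between the times, beside 13.2%. Groups did not overlap for 6 of 10 members at 72 h against DMSO, beside 30.7% of tested genes, for 3 of 10 at 24 h, beside 13.5%, and for 4 of 10 at 72 h against 24 h, beside 21.0%. The 6 were BAX, BAK1, BCL2L11 and BBC3 on the higher side and MCL1 and BCL2L2 on the lower side. The median log2 fold change of the 10 was 0.10 at 72 h and 0.03 at 24 h against DMSO, and 0.03 between the times, against medians over all tested genes of −0.00, 0.01 and −0.01. The comparisons of 72 h and 24 h with DMSO share the DMSO libraries. By role, 4 guardians had medians of −0.07 at 72 h and −0.07 at 24 h against DMSO, 2 effectors 0.25 and 0.14, and 4 BH3-only genes 0.28 and 0.10.

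Without CDDO-Me 24 h replicate 3, the counts of called members were 3 at 72 h against DMSO (BAX, BAK1 and BCL2L11), 0 at 24 h against DMSO and 1 at 72 h against 24 h (PMAIP1), beside 12.9%, 10.8% and 12.0% of the 15311 genes then tested. Without that library and DMSO replicate 1 together, 4 members were called at 72 h against DMSO, beside 17.9% of the 15199 genes then tested. These were BAX, BCL2L11, BBC3 (log2 fold change 0.61, adjusted p = 0.0381, edgeR) and MCL1 (−0.21, adjusted p = 0.00791). In the same fit 3 members were called at 24 h against DMSO, beside 22.8%, namely BAX (0.24, adjusted p = 0.0151), BBC3 (0.81, adjusted p = 0.00843) and PMAIP1 (−0.46, adjusted p = 0.00181). At 72 h against 24 h 2 were called, BCL2 (0.51, adjusted p = 0.0208) and PMAIP1 (0.43, adjusted p = 0.00139), beside 22.8%. The share of all tested genes that was called also went up with these omissions.

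**Figure D5:**
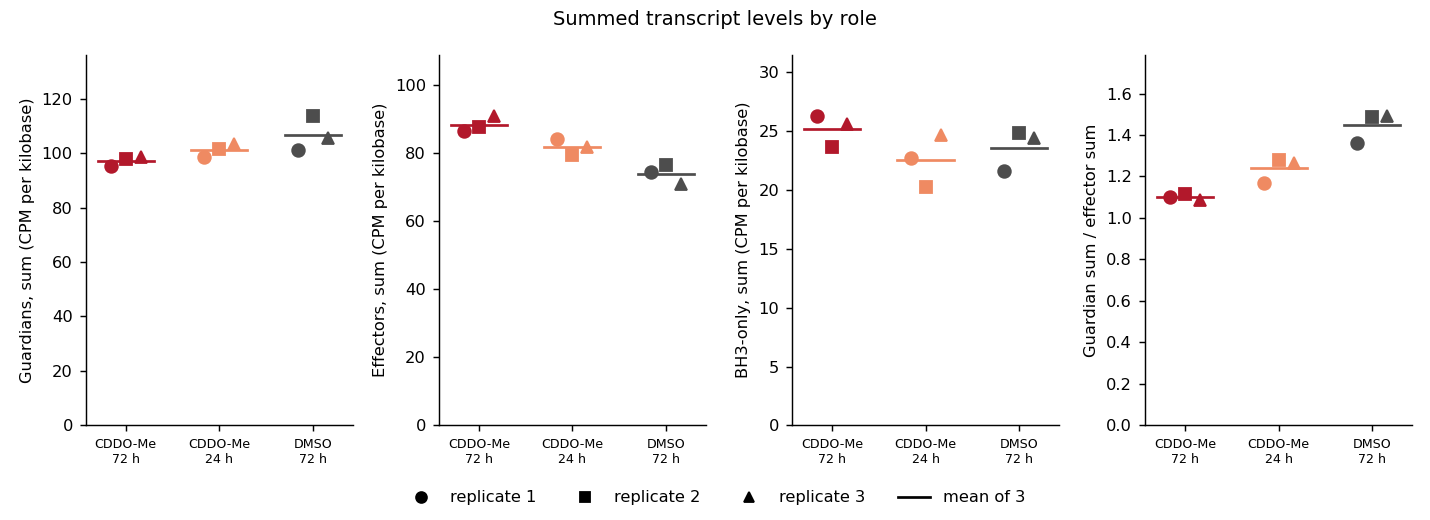
Summed level of the guardians, the effectors and the BH3-only genes in each library, in CPM per kilobase of exon (y axes of the first 3 panels, from 0), and the ratio of the guardian sum to the effector sum (last panel), in the CDDO-Me 72 h, CDDO-Me 24 h and DMSO 72 h groups. Marker shapes give the replicate and bars the mean of 3. The ratio lies between 1.09 and 1.12 at 72 h, 1.17 and 1.28 at 24 h and 1.36 and 1.49 in DMSO. Sums and ratio hold the members only, so BOK and BAD are not in them.

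Sums over the members of a role were taken per length as a description, with no test. The effector sum was 88.2 ± 2.21, 81.7 ± 2.42 and 73.8 ± 2.76 CPM per kilobase in the 72 h, 24 h and DMSO groups, and the guardian sum was 97.2 ± 1.81, 101.1 ± 2.49 and 106.7 ± 6.25 CPM per kilobase. The BH3-only sum was 25.2 ± 1.35, 22.5 ± 2.20 and 23.6 ± 1.77 CPM per kilobase, with overlap between groups. It covers the BH3-only members alone and leaves out others classed with the relatives. Among these, BAD stood at 21.2, 16.7 and 16.2 CPM per kilobase in the 72 h, 24 h and DMSO groups. BAD was not called at 72 h against DMSO (adjusted p = 0.0763, edgeR) but passed by DESeq2, with no filter and with only 2 groups fitted. The ratio of guardian to effector transcripts was 1.10, 1.12 and 1.09 at 72 h, 1.17, 1.28 and 1.27 at 24 h and 1.36, 1.49 and 1.49 in DMSO. The 3 groups did not overlap in this ratio, with DMSO highest and 72 h lowest. Its effectors are BAX and BAK1 alone. BOK, classed here with the relatives, stood at 45.8, 40.3 and 44.8 CPM per kilobase in the 72 h, 24 h and DMSO groups. A ratio with BOK among the effectors was not computed, so the separation is stated only for this choice of members. The ratio recombines the member values given above and is no separate result. Among single tested genes, groups did not overlap for 30.7% at 72 h against DMSO, 13.5% at 24 h against DMSO and 21.0% at 72 h against 24 h. MCL1 made up 75.7%, 75.3% and 77.3% of the guardian sum in the 72 h, 24 h and DMSO groups, so it set most of the numerator. The exon bases that BCL2L1 and BCL2L2 share with other genes limit the guardian sum, the ratio and these shares as well. With MCL1 left out the ratio was 0.267 ± 0.00999 at 72 h, 0.306 ± 0.0339 at 24 h and 0.328 ± 0.0142 in DMSO, and the 24 h and DMSO libraries then overlapped. The ratio of BAX to BCL2, a quotient often used for this family, was 63.6 ± 5.95, 79.6 ± 22.9 and 55.1 ± 2.59, with 105.5 in CDDO-Me 24 h replicate 1, the library lowest in BCL2.

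The genes whose level most resembled that of BAX over the 9 libraries, by Pearson correlation of log2 CPM among 9776 genes of at least moderate level (average log2 CPM of 3), were REEP2 (r = 0.988), ZNF76 (0.959) and CD2BP2 (0.959). The points share libraries and groups, and these values are a description.

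Around the members, the pathway lists held few calls. The counts below at an unadjusted p under 0.05 (edgeR) stand beside shares over all tested genes. These shares were 18.6% at 72 h and 12.8% at 24 h against DMSO, and 13.2% at 72 h against 24 h. Of 13 further BCL2 relatives 7 were tested and 0 were called by edgeR in any comparison (1 at an unadjusted p under 0.05 and 1 by DESeq2 at 72 h against DMSO, 4 at an unadjusted p under 0.05 at 72 h against 24 h), and the member with the most CPM, BNIP3L, a mitophagy receptor, had 137.6 ± 1.95, 142.3 ± 11.5 and 144.5 ± 23.6 CPM in the 72 h, 24 h and DMSO groups. Per kilobase BOK stood above it, at 45.8, 40.3 and 44.8 against 31.9, 33.0 and 33.6 CPM per kilobase for BNIP3L. Of 14 apoptosome, caspase and inhibitor genes 2 were called at 72 h, beside 6.02% of tested genes, and 0 at 24 h, beside 2.15%. BIRC3, an inhibitor of apoptosis, fell to 2.07 ± 0.727 CPM at 72 h, against 4.26 ± 0.379 CPM in DMSO (−1.03 ± 0.28, adjusted p = 0.0433, edgeR). With 1 library left out, its call was kept only without any 1 of the 24 h libraries or CDDO-Me 72 h replicate 1 (adjusted p up to 0.211 without any other library). The call held under 8 of 8 other alternatives. None of 12 death receptor genes was called by edgeR, where 4 had an unadjusted p under 0.05 at 72 h and 3 at 24 h against DMSO, and DESeq2 called 1 and 2. The most expressed, TNFRSF1A, a receptor of tumour necrosis factor, had 226.7 ± 2.77, 248.4 ± 17.8 and 203.6 ± 17.9 CPM in the 72 h, 24 h and DMSO groups. None of 12 genes for turnover and partners of these proteins was called by edgeR (2 at an unadjusted p under 0.05 at either time, and 1 by DESeq2 at 72 h), and the most expressed, YWHAZ, an adaptor that can hold BAD in the cytosol, had 1208 ± 9.10, 1066 ± 217.2 and 1071 ± 58.3 CPM. By limma-voom 0 genes were called in the lists of relatives, death receptors and partners. Without CDDO-Me 24 h replicate 3, the apoptosome and caspase list had 2 genes called higher and 2 lower at 72 h, and 0 and 4 at 24 h. Over all tested genes 12.9% were then called in either direction at 72 h against DMSO and 10.8% at 24 h. In that fit 1 relative was higher at each time, a different gene each. These were BNIP3 at 24 h (adjusted p = 0.0182, edgeR) and BAD at 72 h (0.0185), both named after their values were seen. The death receptor list had 1 gene higher and 1 lower at 72 h and 2 higher and 1 lower at 24 h. The list of turnover and partners had 1 higher and 1 lower at 72 h and 0 and 3 at 24 h. It had 5 lower at 24 h when DMSO replicate 1 was left out too, beside 22.8% of tested genes called in either direction.

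Regulators of the members and other targets of the same regulators were counted in the same way. Of 12 transcription factors of BCL2 family genes only JUN was called against DMSO by edgeR with all libraries, lower at 24 h, where it had 229.1, 205.3 and 188.1 CPM against 278.1, 390.3 and 378.0 CPM in DMSO (−0.75 ± 0.11, adjusted p = 0.00263, edgeR). At 72 h JUN had 362.8, 360.7 and 373.9 CPM, inside the range of DMSO. At 24 h DESeq2 and limma-voom each called 1 factor higher and 2 lower, and without DMSO replicate 1 there were 1 higher and 3 lower at 24 h and 1 higher and 2 lower at 72 h. At 24 h ATF4 (log2 fold change 0.31, adjusted p = 0.0550 by edgeR) passed by DESeq2, by limma-voom, with no filter, with the replicate block, and without CDDO-Me 24 h replicate 3 or DMSO replicate 3. MYC at 24 h (−1.03, adjusted p = 0.113 by edgeR) passed by DESeq2, by limma-voom, in the fit that was not robust and without DMSO replicate 1. Both were named after their values were seen. Of 14 p53 targets outside the family 2 rose at 72 h, beside 2.89% of tested genes called higher, the cell cycle inhibitor CDKN1A (0.69 ± 0.07, adjusted p = 5.31e-05) and TP53I3 (0.74 ± 0.10, adjusted p = 0.000293). The count was 4 without CDDO-Me 24 h replicate 3, beside 12.9% of tested genes called in either direction. It was 5 without both libraries that stood apart, beside 17.9%. With only 2 groups fitted it was also 4. At 24 h 1 of them fell, ZMAT3 (−0.46 ± 0.11, adjusted p = 0.0451, edgeR), beside 1.18% of tested genes called lower. With 1 library left out, its call was kept only without CDDO-Me 24 h replicate 3 or DMSO replicate 1 (up to 0.238 otherwise). The call held under 6 of 8 other alternatives, and was lost by limma-voom and with only 2 groups fitted. BAX, BBC3 and PMAIP1 are p53 targets as well, and their log2 fold changes at 72 h were 0.30, 0.46 and 0.10. Of 10 targets of ATF4 and CHOP, which can raise BBC3, PMAIP1 and BCL2L11, 5 rose at 24 h, beside 0.969% of tested genes called higher, and 2 at 72 h, beside 2.89%, CEBPB and SESN2 at both times (0.81 ± 0.08 and 0.52 ± 0.08 at 24 h, 0.64 ± 0.08 and 0.36 ± 0.08 at 72 h). The other 3 were CHAC1, TRIB3 and PSAT1, the last named after its value was seen, to complete the count. At 24 h the count of higher genes was 2 by limma-voom and with only 2 groups fitted, 6 by DESeq2 and 4 with the replicate block. It was 2 to 7 with 1 library left out, the 7 without CDDO-Me 24 h replicate 3, beside 10.8% of tested genes called in either direction. ATF3 was lower at 24 h, at 14.0 ± 2.41 CPM against 20.9 ± 4.62 in DMSO (adjusted p = 0.0915, edgeR). It passed by DESeq2, with no filter, with the replicate block, and without CDDO-Me 24 h replicate 3 or DMSO replicate 1. PPP1R15A had 84.0, 80.1 and 167.7 CPM at 24 h against 112.5 ± 2.91 in DMSO. It passed, as lower, only in fits without CDDO-Me 24 h replicate 3. ATF3 and PPP1R15A were named after their values were seen. With 1 library left out, the call of CHAC1 was kept only without CDDO-Me 24 h replicate 3 or CDDO-Me 72 h replicate 1, that of TRIB3 only without CDDO-Me 24 h replicate 3, CDDO-Me 72 h replicate 2 or DMSO replicate 3, and that of PSAT1 only without CDDO-Me 24 h replicate 3 (adjusted p up to 0.140, 0.157 and 0.198 otherwise). The calls of CEBPB and SESN2 at 24 h were kept in 9 of 9 such fits, and that of SESN2 at 72 h was lost without CDDO-Me 72 h replicates 2 or 3 or DMSO replicate 2 (up to 0.100). Over these lists the median log2 fold changes at 72 h and 24 h were 0.13 and −0.01 for the p53 targets and 0.22 and 0.50 for the ATF4 and CHOP targets, beside −0.00 and 0.01 over all tested genes.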

How the data were processed

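Polyadenylated RNA of 9 AC16 libraries was sequenced from an unstranded TruSeq v2 preparation, per the labels' protocols. The authors deposited raw read counts, 1 whole number per Ensembl gene and library. Per the submitters' processing notes the tools included featureCounts, Subread, STAR and SAMtools, with hg38 (GRCh38) as build. Their versions, the annotation release and the handling of reads with several matches were not given in the sources used here. There were 58299 genes and no mitochondrial gene; 57717 IDs had a name, and the 10 members had the same start and end in GENCODE 29. Titles shorten CDDO-Me to CDDO, and all treated libraries were taken as CDDO-Me.

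The test was edgeR 4.0.16 (R 4.3.3; robust quasi-likelihood, trimmed mean of M values, filterByExpr), with 9 libraries, 3 group means and 6 residual degrees of freedom. Benjamini-Hochberg adjustment covered 14965 tested genes, which held 99.87 to 99.9% of counts, and calls had an adjusted p under 0.05. The common biological coefficient of variation was 11.5%. The SE was taken as the absolute log2 fold change divided by the root of F. At these depths 3 counts equal 0.107 to 0.178 CPM, the limit that a count of 0 allows, for counting error only. No replicates were identical, and every pair exceeded sampling noise (chi-square per degree of freedom 2.08 or more). The fit was tested on simulated data.

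The members and lists were chosen with earlier results of these data known. Named besides the 10 members are up to 4 called genes per list by adjusted p plus the largest opposite change, or the most expressed gene where none was called, genes overlapping a member, and 3 genes most like the member with the smallest adjusted p. Alternatives were RLE size factors, no filter, DESeq2 1.42.0, limma-voom (limma 3.58.1), a fit of 2 groups, a replicate block, no robust option, and libraries left out. The values of 1 gene counted in the context lists are not reported here.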

Additional observations from a re-analysis of the deposited data

How the results depend on the processing

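The counts of called members were 0 at 24 h, 1 at 72 h and 0 between the times with the replicate block, as without it. Same-numbered libraries of different groups correlated at −0.03 to 0.08 in their deviations from group means, and libraries of different numbers at −0.11 to 0.04. Correlations this small do not settle whether the numbers pair the libraries. With 1 library left out the member counts were 0 throughout at 24 h, 0 to 3 at 72 h and 0 to 1 between the times, and without the libraries that stood apart they were 3, 4 and 2. At 72 h 2 members passed when only 2 groups were fitted. Counts over all genes moved by more than 1.5 times. At 24 h (321 as reported) they were 662 with no filter, 546 by DESeq2, 100 with only 2 groups, 3464 without both libraries that stood apart, and 134 to 1657 with 1 library left out. At 72 h (901) they were 1776 with 2 groups, 2724 without both libraries, and 401 to 1972. Between the times (152) they were 507 with no filter, 394 by DESeq2, 3471 without both libraries, and 32 to 1843. The cause was not tested. Signs changed only for members near 0 that passed in neither setting. Without both libraries BCL2L1 was at −0.096, −0.045 and 0.050 in the comparisons in this order, BCL2L2 at 0.092 at 24 h (0.0033 by limma-voom), PMAIP1 at −0.025 at 72 h, and BID at 0.112 between the times. With 1 library left out the log2 ranges at 24 h were −0.032 to 0.122 for BCL2L1, −0.115 to 0.141 for BCL2L2 and −0.143 to 0.091 for BID. At 72 h they were −0.042 to 0.070 for BCL2L1, −0.086 to 0.014 for BID and −0.021 to 0.173 for PMAIP1. Between the times they were −0.101 to 0.053 for BCL2L1 and −0.118 to 0.113 for BID. Other log2 values that moved by over 1.5 times against DMSO with 1 library left out passed in none of these fits. They ran from 0.246 to 0.607 for BBC3, −0.453 to −0.197 for BCL2L2 and 0.0102 to 0.168 for BCL2 at 72 h, and at 24 h from 0.413 to 0.774 for BBC3, −0.413 to −0.0844 for BCL2, 0.0982 to 0.381 for BCL2L11 and −0.159 to −0.0650 for MCL1. The guardian to effector ratio was the same on a TPM scale, by construction, and 0.267, 0.306 and 0.328 at 72 h, 24 h and in DMSO without MCL1. BCL2, BCL2L11 and BBC3 had 64 to 237 counts per library, which limits their precision.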
